A study of Mus musculus with 14 samples.

Results

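The cystine transporter gene Slc7a11 was examined together with 9 genes of glutathione and thioredoxin redox defence in the anterior cortex of 14 mice. The 10 genes were Slc7a11, Slc3a2, Gclc, Gclm, Gss, Gsr, Gpx4, Txnrd1, Nqo1 and Nfe2l2, out of 19360 gene symbols in the deposited count table. For each symbol the RefSeq transcript with the largest summed count stood for the gene. Slc7a11 was chosen because it had the smallest p of all genes in DG/DG against DG/+, so its values in that comparison are given as a description with no test, and the other 9 genes were added by their known function. The comparison of DG/DG with WT uses the same DG/DG libraries and is therefore not independent of that choice.

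The mice were C57BL/6J animals aged 15 months, and each gave 1 library. In DG/DG mice (n = 4) both copies of Vcp, which encodes an ATPase that pulls proteins out of complexes and aggregates, carried the DG allele. DG/+ mice (n = 6) carried 1 copy of it, and WT mice (n = 4) carried 0. The series title describes the mutation as a dominant hypomorph that impairs the disaggregation of tau filaments. The sources used here do not give sex, litter, batch or sequencing date.

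Cystine enters cells in exchange for glutamate through system xc-, a pair of proteins made of the light chain xCT (Slc7a11) and the heavy chain CD98 (Slc3a2). Inside the cell cystine is reduced to cysteine, and glutamate-cysteine ligase (Gclc, catalytic, and Gclm, modifier) and glutathione synthetase (Gss) build glutathione from it. Glutathione is kept reduced by Gsr and is spent by Gpx4, a selenoprotein that removes lipid hydroperoxides and protects cells from ferroptosis. Txnrd1, a further selenoprotein, keeps thioredoxin reduced, and Nqo1 reduces quinones. The transcription factor NRF2, encoded by Nfe2l2, drives many of these genes through antioxidant response elements, and ATF4 is a second known regulator of Slc7a11. In brain, xCT is known from astrocytes and the meninges.

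Promoter windows were searched for the known motifs of these regulators. The RefSeq promoter table (GRCm38.p6) gives the 250 bases before and 50 bases after a listed start of a gene, and held 13 entries for 8 of the 10 genes. The windows of Slc7a11 and Slc3a2 lie inside the gene spans given below and not at their outer ends. Whether a window belongs to the transcript counted here was not checked. The strand read is that of the gene. Capitals mark the ATF4 element TGATGCAA and the antioxidant response element TGACNNNGC, each searched on both strands. The first 2 windows are those of the light and heavy chains of the transporter, and the window of Gclm is shown for its antioxidant response element.
Slc7a11 promoter, chr3:50443564-50443863, minus strand: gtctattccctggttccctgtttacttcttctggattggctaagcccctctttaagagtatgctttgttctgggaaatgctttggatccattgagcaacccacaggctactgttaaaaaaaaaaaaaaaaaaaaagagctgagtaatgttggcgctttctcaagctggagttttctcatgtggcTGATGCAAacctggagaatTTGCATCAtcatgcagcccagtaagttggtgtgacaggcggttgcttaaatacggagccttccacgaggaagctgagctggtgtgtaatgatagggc
Slc3a2 promoter, chr19:8713848-8714147, minus strand: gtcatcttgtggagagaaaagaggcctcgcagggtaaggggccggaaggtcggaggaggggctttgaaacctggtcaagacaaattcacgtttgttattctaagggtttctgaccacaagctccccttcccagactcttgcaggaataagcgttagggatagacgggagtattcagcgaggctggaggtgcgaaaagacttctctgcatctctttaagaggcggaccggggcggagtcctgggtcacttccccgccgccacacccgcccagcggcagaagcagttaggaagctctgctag
Gclm promoter, chr3:122245307-122245606, plus strand: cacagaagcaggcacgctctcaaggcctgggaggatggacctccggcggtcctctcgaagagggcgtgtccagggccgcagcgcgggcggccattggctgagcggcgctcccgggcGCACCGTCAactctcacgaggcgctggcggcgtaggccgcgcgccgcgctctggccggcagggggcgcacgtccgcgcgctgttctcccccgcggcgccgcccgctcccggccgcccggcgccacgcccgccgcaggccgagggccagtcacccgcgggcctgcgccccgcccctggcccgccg

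The Slc7a11 window held 2 ATF4 elements, at -66 to -59 and, on the opposite strand, at -47 to -40 from the listed start. Of 32851 promoter windows in the table, 294 (0.895%) held the element and 2 held it more than once. The antioxidant response element stood in 4071 windows (12.392%). Among the 10 genes it was found in the windows of Gclm (-134 to -126), Nfe2l2 (-240 to -232) and 1 of 3 windows of Txnrd1 (-92 to -84). No match of either motif lay in the windows of Slc3a2, Gss, Gpx4 and Nqo1, and the motifs did not overlap in any window. These matches describe letters in a short window and do not show binding.

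Depth was between 8.65 and 15.91 M (mega) counts a library, with 1 transcript taken for each gene. All 10 genes passed edgeR's filter on low counts, among 14565 genes tested. The 10 genes together had 3598 to 6550 counts per library, and a single gene had between 30 (Nqo1) and 1813 (Slc7a11). Vcp itself was at 110.7 ± 4.59 CPM in DG/DG, 99.99 ± 4.58 CPM in DG/+ and 97.3 ± 8.32 CPM in WT (SD, n = 4, 6 and 4), and its level does not by itself check the labels. All 13 astrocyte markers and all 8 neuron markers had reads in every library. Transcripts of neighbouring tissue stood apart in some libraries. Summed over 10 choroid plexus markers, DG/DG libraries had 33.2 to 48.3 CPM, DG/+ libraries 20.2 to 637 CPM and WT libraries 35.2 to 1377 CPM, with WT replicate 3 the highest. All 10 had a log2 fold change below 0 in DG/DG against WT (median -1.54) and in DG/+ against WT (median -0.52). Of these markers 0 passed the threshold. Of all genes, 50.1% lay above 0 in DG/DG against WT and 47.3% in DG/+ against WT. DG/DG replicate 1 had 4367 CPM over 9 pituitary markers, against 102 to 187 CPM in the other libraries. Over 8 cerebellar markers, DG/DG libraries had 118 to 143 CPM, DG/+ libraries 109.8 to 209 CPM and WT libraries 92.1 to 186 CPM, with DG/+ replicate 2 and WT replicate 2 the highest of their genotypes. These 4 libraries were left out together in 1 of the alternatives. That alternative kept DG/+ replicates 1 and 5, with 603.5 and 637.4 CPM of choroid plexus markers. Over 7 striatal markers, DG/DG libraries had 155 to 1081 CPM, DG/+ libraries 122.6 to 1188 CPM and WT libraries 205.2 to 570.3 CPM. All 7 had a log2 fold change above 0 in DG/DG and in DG/+ against WT, and 0 passed the threshold. The highest DG/DG and DG/+ libraries for these markers were also kept.

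Slc7a11 stood highest in the DG/DG cortex and at like levels in DG/+ and WT. In CPM (counts per mega-count, TMM scaling), DG/DG replicates 1 to 4 had 151, 136, 127 and 127. The 6 DG/+ libraries ran from 94.96 through a median of 102 to 110.1 CPM. WT replicates 1 to 4 had 113.5, 86.4, 127 and 92.7 CPM. All DG/DG libraries lay above all DG/+ libraries with a gap between the groups, while WT spanned the whole range of DG/+ and reached the lowest DG/DG libraries. Means were 135 ± 11.2 CPM in DG/DG, 102 ± 6.06 CPM in DG/+ and 105 ± 18.9 CPM in WT (SD, n = 4, 6 and 4).

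In DG/DG against WT the log2 fold change of Slc7a11 was 0.37 (SE 0.106, 95% confidence interval 0.141 to 0.59), a 1.29-fold higher level. The adjusted p of edgeR's quasi-likelihood test was 0.886 over all genes, so the difference did not pass the threshold of 0.05, and Slc7a11 ranked 19 of 14565 by its p. In the authors' deposited table, their own edgeR comparison gave Slc7a11 a log2 value of 0.37 for DG/DG against WT, with an FDR of 1. The lowest DG/DG value (127.43 CPM) lay 0.04 CPM above the highest WT value (127.39 CPM). Of 4 other scalings tried after seeing the data, 3 made the groups overlap. The lowest DG/DG and highest WT values were then 127.26 CPM in DG/DG and 127.49 CPM in WT with RLE size factors, 126.32 CPM in DG/DG and 127.72 CPM in WT with upper-quartile factors, and 126.65 CPM in DG/DG and 127.07 CPM in WT by library size alone. In the authors' deposited log2 values the groups did not overlap, at 10.602 in DG/DG and 10.6 in WT.

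The SD of Slc7a11 was larger in WT than in the other genotypes. Without WT replicate 3, the library with the most choroid plexus transcripts, the log2 fold change of Slc7a11 in DG/DG against WT was 0.47, and without WT replicate 2, the WT library with the most cerebellar transcripts and the least Slc7a11, it was 0.28. The part of these transcripts in the result was not tested. Without both of these WT libraries, DG/DG replicate 1 and DG/+ replicate 2 together, it was 0.34 (edgeR adjusted p = 0.739). Without WT replicate 3 and DG/DG replicate 1 together, a choice made after seeing the data, it was 0.42 with an edgeR adjusted p of 0.292, the lowest adjusted p of any alternative run for this gene and comparison.

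Between DG/+ and WT, Slc7a11 differed by a log2 fold change of -0.05 (95% confidence interval -0.253 to 0.157, edgeR adjusted p = 1). In DG/DG against DG/+, the comparison it was chosen from, its log2 fold change was 0.41, given as a description. Its slope per DG allele was 0.18 on the log2 scale (0.0541 to 0.313, edgeR adjusted p = 0.845), although the DG/+ mean lay below the WT mean and not between the other genotypes. The slope uses the DG/DG and DG/+ libraries that the choice of Slc7a11 came from, so its interval and p are not independent of that choice.

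**Figure D1:**
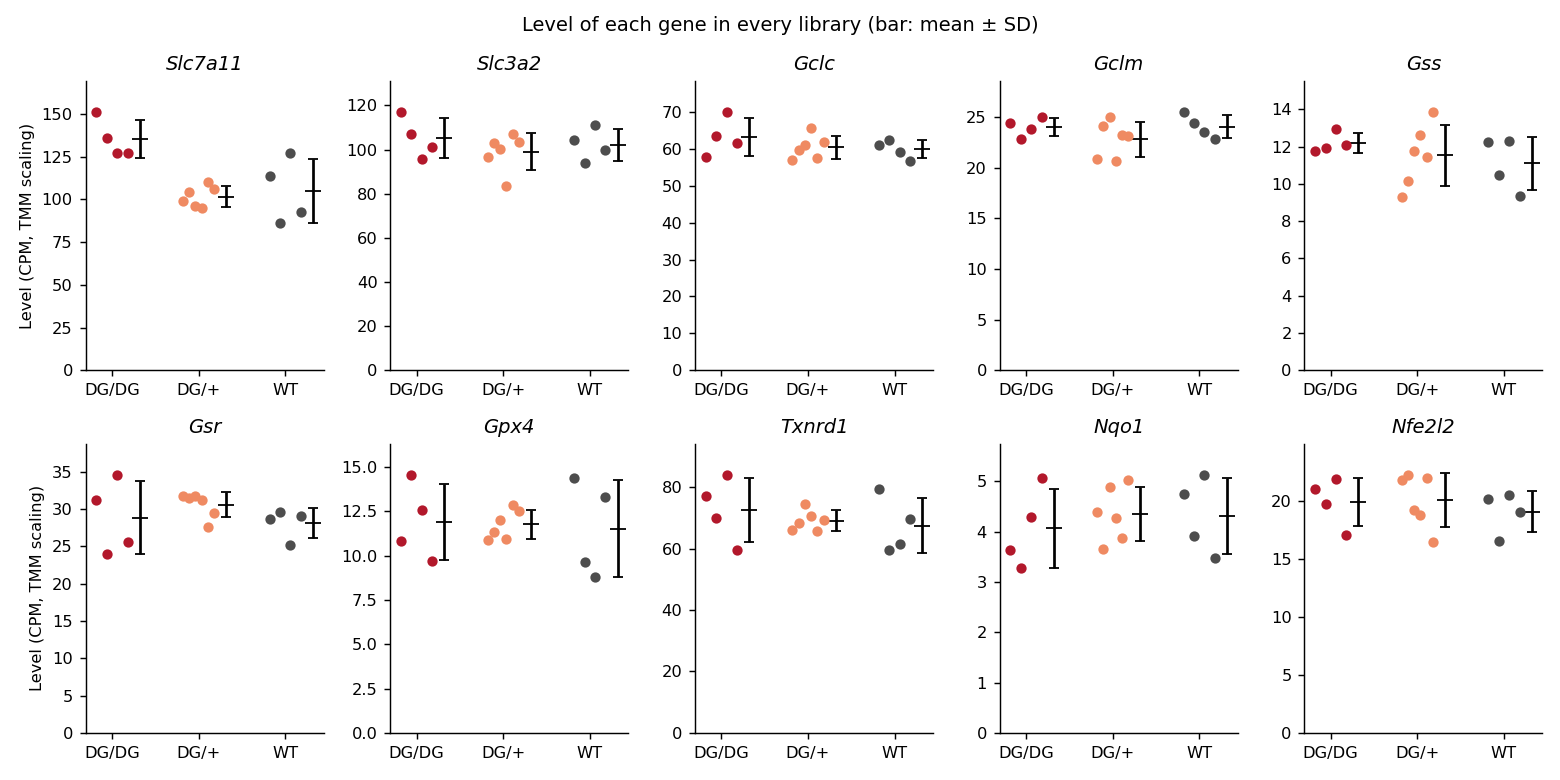
Level of each of the 10 genes (y axis, CPM with TMM scaling, from 0) in every library by genotype (x axis), with bars for the mean ± SD (n = 4 DG/DG, 6 DG/+ and 4 WT). The 4 DG/DG libraries of Slc7a11 sit at 127 CPM or above and all DG/+ libraries at 110.1 CPM or below, while the points of the other 9 genes overlap between genotypes.

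Slc3a2, the heavy chain that carries xCT to the cell surface, overlapped between the genotypes. DG/DG replicates 1 to 4 had 117, 107, 95.8 and 101 CPM. The DG/+ libraries had 83.5 CPM at the lowest, a median of 102 and 107 CPM at the highest. WT replicates 1 to 4 had 104, 94.0, 111 and 99.6 CPM. DG/DG replicate 1 was the highest library and DG/+ replicate 4 the lowest, as for Slc7a11 among DG/DG and DG/+ libraries. The log2 fold change was 0.04 in DG/DG against WT (95% confidence interval -0.141 to 0.223, edgeR adjusted p = 0.961), -0.05 in DG/+ against WT (-0.213 to 0.118, adjusted p = 1) and 0.09 in DG/DG against DG/+ (-0.077 to 0.254, adjusted p = 0.972).

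Across the 14 libraries the chains of the transporter had the highest correlation of all pairs of the 10 genes. Pearson's r of log2 CPM for Slc7a11 and Slc3a2 was 0.676 (permutation p = 0.00629) and Spearman's rho was 0.679 (permutation p = 0.00933), both two-sided over 14 libraries. Adjusted over the 45 pairs these became 0.283 and 0.254, so the relation did not pass. Without the 2 libraries farthest from the median of Slc7a11, r was 0.504. With the genotype means removed, r was 0.769. The points share library and depth scaling. They include the libraries that the choice of Slc7a11 came from, so these p-values are not independent of that choice.

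**Figure D2:**
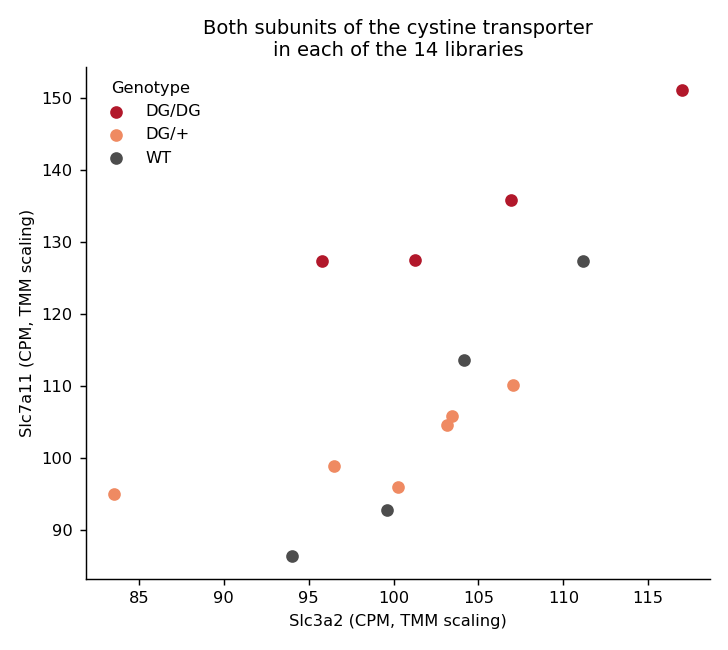
Slc7a11 (y axis, CPM) against Slc3a2 (x axis, CPM) in the 14 libraries, 1 point per library, coloured by genotype; neither axis starts at 0. At a like level of Slc3a2 the DG/DG points lie above most others, and WT replicate 3 at 111 CPM of Slc3a2 and 127 CPM of Slc7a11 stands next to them.

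The enzymes that build glutathione were close in all genotypes. Gclc, which makes the rate-limiting step, was at 57.9, 63.6, 70.0 and 61.5 CPM in DG/DG replicates 1 to 4. It had 57.0, 60.4 and 65.6 CPM as the lowest, median and highest DG/+ values, and 61.2, 62.5, 59.1 and 56.9 CPM in WT replicates 1 to 4. DG/DG replicate 3 was the highest library of Gclc and the other DG/DG libraries lay among the rest. Its log2 fold change was 0.08 in DG/DG against WT (95% confidence interval -0.0733 to 0.231, edgeR adjusted p = 0.913) and 0.01 in DG/+ against WT (-0.126 to 0.152, adjusted p = 1).

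Gclm, the modifier that raises the activity of Gclc, had 24.5, 22.9, 23.8 and 25.02 CPM in DG/DG libraries, a DG/+ range of 20.7 to 24.98 CPM with a median of 23.2, and 25.5, 24.4, 23.5 and 22.9 CPM in WT libraries. The DG/DG libraries lay inside the WT range but for 1 just below it, and 2 DG/+ libraries were the lowest of all. The log2 fold change of Gclm in DG/DG against WT rounded to 0 (95% confidence interval -0.175 to 0.167, edgeR adjusted p = 0.995), and in DG/+ against WT it was -0.08 (-0.234 to 0.0771, adjusted p = 1). Gss, which adds glycine to complete glutathione, averaged 12.2 ± 0.528 CPM in DG/DG, 11.5 ± 1.65 CPM in DG/+ and 11.1 ± 1.43 CPM in WT (SD, n = 4, 6 and 4). Its log2 fold change in DG/DG against WT was 0.13 (-0.145 to 0.406, edgeR adjusted p = 0.914).

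For the reductases and the lipid peroxidase the 3 genotypes overlapped. Gsr, which returns oxidised glutathione to its reduced form, had 31.2, 23.996, 34.6 and 25.5 CPM in DG/DG libraries, a DG/+ range of 27.6 to 31.8 CPM with a median of 31.4, and 28.7, 29.6, 25.2 and 29.01 CPM in WT libraries. The DG/DG libraries of Gsr held both the highest and the lowest values of the 14. Its log2 fold change was 0.04 in DG/DG against WT (95% confidence interval -0.189 to 0.265, edgeR adjusted p = 0.971) and 0.12 in DG/+ against WT (-0.0837 to 0.33, adjusted p = 1), the largest of the 10 genes in that comparison.

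Gpx4 had 10.8, 14.6, 12.6 and 9.68 CPM in DG/DG libraries, a DG/+ range of 10.9 to 12.9 CPM with a median of 11.7, and 14.4, 9.64, 8.78 and 13.3 CPM in WT libraries. All DG/+ libraries lay within the spread of the other genotypes. The log2 fold change was 0.05 in DG/DG against WT (95% confidence interval -0.285 to 0.393, edgeR adjusted p = 0.972) and 0.03 in DG/+ against WT (-0.276 to 0.342, adjusted p = 1). A near-identical processed copy of Gpx4 can take or lend reads, so its level is uncertain.

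Txnrd1 averaged 72.6 ± 10.5 CPM in DG/DG, 69.1 ± 3.29 CPM in DG/+ and 67.5 ± 8.97 CPM in WT (SD, n = 4, 6 and 4). Its lowest and highest libraries were both DG/DG, at 59.5 and 84.0 CPM. The log2 fold change of Txnrd1 was 0.11 in DG/DG against WT (95% confidence interval -0.115 to 0.329, edgeR adjusted p = 0.914) and 0.03 in DG/+ against WT (-0.168 to 0.237, adjusted p = 1).

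NRF2 and the target most used as its readout overlapped between genotypes as well. Nfe2l2 had 21.02, 19.8, 21.9 and 17.1 CPM in DG/DG libraries, a DG/+ range of 16.49 to 22.3 CPM with a median of 20.5, and 20.1, 16.6, 20.5 and 19.1 CPM in WT libraries. Nqo1, the least counted of the genes, had 3.63, 3.28, 4.30 and 5.06 CPM in DG/DG libraries, a DG/+ range of 3.65 to 5.02 CPM with a median of 4.33, and 4.74, 3.91, 5.13 and 3.47 CPM in WT libraries. In both genes each genotype covered most of the range of the others. The log2 fold change in DG/DG against WT was 0.06 for Nfe2l2 (95% confidence interval -0.179 to 0.303, edgeR adjusted p = 0.952) and -0.09 for Nqo1 (-0.479 to 0.292, adjusted p = 0.955). In DG/+ against WT it was 0.07 for Nfe2l2 (-0.145 to 0.294) and below 0.01 for Nqo1 (-0.346 to 0.354), with an edgeR adjusted p of 1 for each. NRF2 is regulated mainly as a protein, and protein was not measured here.

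**Figure D3:**
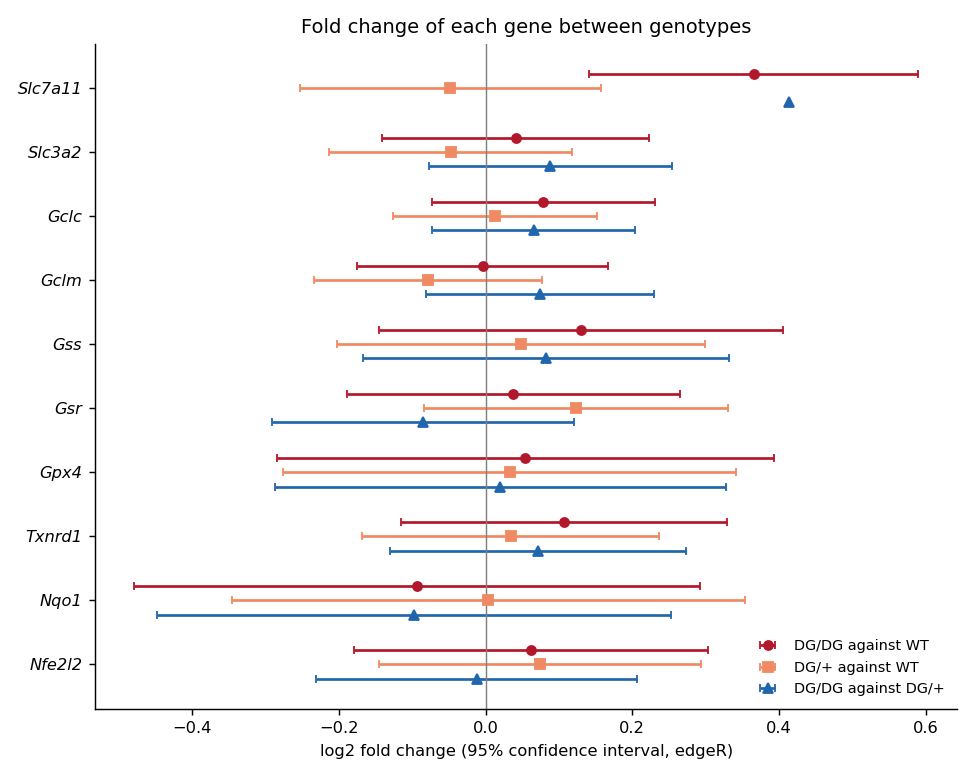
Log2 fold change (x axis) of each gene (rows) with its 95% confidence interval from the edgeR fit, for DG/DG against WT, DG/+ against WT and DG/DG against DG/+. Slc7a11 in DG/DG against DG/+, the comparison it was chosen from, is drawn as a point with no interval. Its interval in DG/DG against WT (0.141 to 0.59) lies above 0, though its adjusted p was 0.886, and the intervals of the other 9 genes include 0.

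Counted over the 10 genes, 0 passed the edgeR threshold in any comparison, as did 0 of 14565 genes (0%). At an unadjusted p under 0.05 edgeR gave 1 of the 10 genes, Slc7a11, in DG/DG against WT, where 747 genes (5.13%) reached it, and DESeq2 and limma-voom gave 773 and 633 genes with 0 called. In DG/+ against WT 0 of the 10 reached it, against 233 genes (1.6%) by edgeR, 264 by DESeq2 and 251 by limma-voom, with 0 called by each. In DG/DG against DG/+ Slc7a11 was the 1 gene that reached it, as its choice fixed, beside 481 genes (3.3%) by edgeR, 528 by DESeq2 and 484 by limma-voom, with 0 called by each. These unadjusted counts over all genes moved with single libraries. For DG/DG against WT edgeR gave 1466 without WT replicate 1, 1367 without WT replicate 3 and 345 without WT replicate 4. For DG/+ against WT it gave 437 without DG/+ replicate 5, 456, 426 and 360 without WT replicates 1, 2 and 3, and 142 to 155 without DG/+ replicate 1, 2 or 3. Between DG/DG and DG/+ it gave 904 without DG/+ replicate 4 and 289 without DG/+ replicate 1. The genotypes did not overlap for 1 of the 10 genes in DG/DG against WT, where 382 of all genes (2.62%) did not, and for 0 in DG/+ against WT, where 46 (0.316%) did not. In DG/DG against DG/+ it was again Slc7a11, beside 176 of all genes (1.21%).

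Of the 10 genes, 8 had a log2 fold change above 0 in DG/DG against WT, with a median of 0.06 against a median of 0.000272 over all genes, of which 50.1% were above 0. In DG/+ against WT 7 were above 0 with a median of 0.02, where the median over all genes was -0.0068 and 47.3% were above 0. In DG/DG against DG/+ 7 were above 0 with a median of 0.07, where the median over all genes was 0.00226 and 50.6% were above 0. The comparisons against WT share the WT libraries, and those of DG/DG share the DG/DG libraries. Slc7a11 is among the genes above 0 in both comparisons of DG/DG, and it was chosen from DG/DG against DG/+. The counts and medians of these comparisons are therefore not independent of that choice.

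Set in order by CPM per kilobase of transcript, averaged over 14 libraries, the genes ran from the transporter's heavy chain down to the quinone reductase. Slc3a2 was at 36.2, Txnrd1 at 30.3 and Gclc at 17.9 CPM per kilobase. Slc7a11 (12.2), Gpx4 (11.8) and Gsr (10.99) came next and could not be put in order, since Slc7a11 exceeded Gpx4 in 5 of 14 libraries and Gpx4 exceeded Gsr in 7. The place of Gpx4 is also uncertain because its processed copy can take or lend reads. Nfe2l2 (7.98), Gss (5.91), Gclm (4.21) and Nqo1 (2.74) followed, with each above the next in 13 or 14 libraries. Slc3a2 exceeded Txnrd1 in 12 libraries. In CPM, Slc7a11 was above Slc3a2 on average (112 and 102 over all libraries), but its transcript of 9223 bases is much longer than the 2813 bases of Slc3a2. If the counts of Txnrd1 belong to its longest listed transcript (3622 bases), its level would be 19.2 CPM per kilobase, and it would keep its place.

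**Figure D4:**
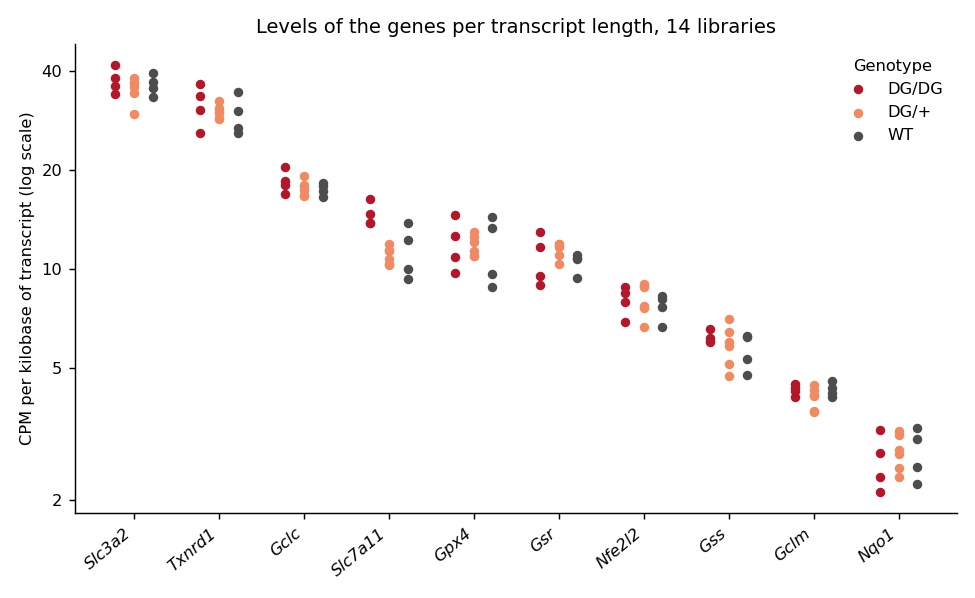
CPM per kilobase of transcript (y axis, log scale) of the 10 genes in order of their mean, 1 point per library, with DG/DG, DG/+ and WT side by side. The ranges of Slc7a11, Gpx4 and Gsr overlap, and in Slc7a11 the DG/DG points (13.8 to 16.4) lie above the DG/+ points (10.3 to 11.9). A processed copy of Gpx4 can take or lend reads, so its place is uncertain.

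By position in mm10, the genes lie apart from each other. Slc7a11 spans chr3:50364936-50499087 and Gclm chr3:122245487-122267215, Slc3a2 spans chr19:8706882-8723369 and Gclc chr9:77754535-77794489. Gss (chr2:155563181-155592810) and Nfe2l2 (chr2:75675513-75704663) share a chromosome, as do Gsr (chr8:33653238-33698162) and Nqo1 (chr8:107388225-107403205), and Gpx4 (chr10:80047166-80056439) and Txnrd1 (chr10:82833951-82897724). Gclm, Gss, Gsr and Txnrd1 overlap other annotated genes (Gssos2 in Gss and Eid3 in Txnrd1 among them), and whether the authors counted by strand is not given in the sources used here, so reads of overlapping genes cannot be told apart.

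The 10 genes did not vary as a block, and no pair passed the threshold once adjusted. Of 45 pairs, 31 had a Pearson's r above 0 over the 14 libraries and the median r was 0.0944. After Slc7a11 with Slc3a2, the highest were Gpx4 with Txnrd1, both selenoproteins (r = 0.627, rho = 0.543), Gclc with Gss (r = 0.602, rho = 0.667) and Gsr with Txnrd1 (r = 0.554, rho = 0.437). The lowest was Slc3a2 with Gclc (r = -0.499, rho = -0.385). The permutation p of r adjusted over 45 pairs was 0.353 for the first 2 of these, 0.454 for Gsr with Txnrd1 and 0.5 for the last. Without the 2 libraries farthest from the median of the first gene named, r was 0.636 for Gpx4 with Txnrd1, 0.478 for Gclc with Gss and -0.285 for Slc3a2 with Gclc.

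Over the 14 libraries, genes outside the 10 had a higher r with Slc7a11 than its partner Slc3a2 did (r = 0.676). Among the 14007 genes that averaged 1 CPM or more, the 8 with the highest Pearson's r over 14 libraries were 1110012L19Rik (0.916), Cnn2 (0.913), Sdf2 (0.878), Myeov2 (0.877), Fam180a (0.858), Pam (0.856), Hexa (0.855) and Zfp449 (0.851). The lowest were Mtap7 (-0.878), Prpf3 (-0.851), Tjap1 (-0.84) and Otud7b (-0.832). Cnn2 encodes an actin-binding calponin, Pam an enzyme that amidates peptides, Hexa a lysosomal hexosaminidase subunit and Mtap7 a microtubule-associated protein. The 5th and 95th percentiles over all these genes were -0.558 and 0.58. These were picked as extremes, so r is a description. With genotype means removed, r was 0.931 for 1110012L19Rik, 0.903 for Cnn2, 0.881 for Fam180a and 0.799 for Myeov2. It was 0.716 for Sdf2, 0.716 for Pam, 0.676 for Hexa and 0.556 for Zfp449, below the 0.769 of Slc3a2.

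Markers of the cells known to hold xCT were correlated with Slc7a11, as were some of other cells, and none passed the threshold once adjusted. The part of any of them in the genotype difference of Slc7a11 was not tested beyond the covariate fits given here. All these correlations use the DG/DG and DG/+ libraries that the choice of Slc7a11 came from, so their p is not independent of that choice. For the markers, r with genotype means removed was not computed. The mean log2 level of 12 meningeal fibroblast markers had r = 0.63 and rho = 0.684 with Slc7a11 over the 14 libraries (permutation p of r = 0.0162, 0.081 adjusted over 12 marker lists), and r was 0.705 without the 2 libraries farthest from the median of the markers. For 13 astrocyte markers r was 0.56 and rho 0.616 (permutation p of r = 0.0358, 0.107 adjusted), and 0.493 without the 2 farthest libraries. For 8 oligodendrocyte markers r was -0.61 and rho -0.618 (permutation p of r = 0.0202, 0.081 adjusted), and -0.603 without the 2 farthest. For 9 pituitary markers r was 0.605 and rho 0.459 (permutation p of r = 0.00996, 0.081 adjusted), and it was -0.00124 without the 2 farthest libraries, so that relation rests on those. For the other 8 lists the adjusted permutation p of r was 0.224 or above. Of these, 8 microglia markers had r = 0.467 and rho = 0.578 (permutation p of rho = 0.0332, 0.0997 adjusted), and r was 0.334 without the 2 farthest libraries. In DG/DG against WT, 7 of the 8 microglia markers lay above 0 and 1 below, where 50.1% of all genes lay above 0. For 8 endothelial and mural markers r was 0.165, and 0.641 without the 2 farthest.

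Summed over its markers, the meningeal level was 552 to 915 CPM in DG/DG, 330.0 to 1143 CPM in DG/+ and 360 to 1110 CPM in WT. The astrocyte level was 7573 to 9925 CPM in DG/DG, 7166 to 8703 CPM in DG/+ and 7540 to 9629 CPM in WT, and the oligodendrocyte level 2104 to 3352 CPM in DG/DG, 2635 to 3364 CPM in DG/+ and 1863 to 3389 CPM in WT. These ranges overlapped between genotypes, and each marker of the 3 lists had a read in every library. In DG/DG against DG/+, 10 of 12 meningeal, 11 of 13 astrocyte and 0 of 8 oligodendrocyte markers had a log2 fold change above 0. Of all genes, 50.6% did. WT replicate 3, the WT library with the most Slc7a11, was also the WT library with the highest meningeal and astrocyte levels and the lowest oligodendrocyte level. With the meningeal level as a covariate, a choice made after seeing the data, the log2 fold change of Slc7a11 in DG/DG against WT was 0.34 (SE 0.0758, edgeR adjusted p = 0.787), and with the astrocyte level it was 0.35 (SE 0.0924, edgeR adjusted p = 0.764). In whole tissue, more cells of a type and more RNA per cell cannot be told apart.

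Around the 10 genes, 9 lists of related genes were counted. The lists were written with earlier results of these data known, and 0 of their genes passed the edgeR threshold in DG/DG against WT or in DG/+ against WT, so the genes below are given as values. Most were named for their small p, so a lack of overlap between DG/DG and WT follows in part from that choice. DG/DG and WT did not overlap for 382 of all genes (2.62%).

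The other light chains that pair with Slc3a2, with further carriers of cystine and cysteine, had a median below 0. Of 12 listed, 9 passed the filter, 2 had a log2 fold change above 0 in DG/DG against WT and 7 below, with a median of -0.18, where 50.1% of all genes were above 0. In DG/+ against WT all 9 lay below 0 with a median of -0.07. Slc7a6, a y+L amino acid carrier, was at 23.7 ± 3.65 CPM in DG/DG, 27.7 ± 2.36 CPM in DG/+ and 29.1 ± 6.45 CPM in WT (log2 fold change -0.29 in DG/DG against WT, edgeR adjusted p = 0.886). Slc7a5, the large neutral amino acid carrier LAT1, was at 64.0 ± 7.94 CPM in DG/DG, 65.7 ± 8.59 CPM in DG/+ and 70.7 ± 7.37 CPM in WT (-0.14, adjusted p = 0.904). Slc7a7, a further y+L carrier, was at -0.49, the glutamine carrier Slc1a5 at -0.33 and the lysosomal cystine exporter Ctns at -0.20 on the log2 scale in DG/DG against WT, and all had overlapping ranges. Slc7a7 (1.15 CPM in DG/DG, 1.60 CPM in WT, SE 0.331) and Slc1a5 (2.54 CPM in DG/DG, 3.18 CPM in WT, SE 0.263) stood at low levels.

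Other glutathione metabolism was even, with 10 of 20 above 0 and 10 below (median -0.00232) in DG/DG against WT. The efflux pump Abcc4 was at 19.99 ± 3.8 CPM in DG/DG, 23.8 ± 4.18 CPM in DG/+ and 26.04 ± 4.38 CPM in WT (log2 fold change -0.39 in DG/DG against WT). Esd (0.22) and the glyoxalase Hagh (0.16) were on the other side. In DG/+ against WT, 9 were above 0 and 11 below.

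Of 19 glutathione transferases, 12 lay above 0 and 7 below in DG/DG against WT (median 0.08), and 8 above and 11 below in DG/+ against WT (median -0.05). Gstp1 was at 54.7 ± 9.06 CPM in DG/DG, 47.97 ± 4.12 CPM in DG/+ and 44.5 ± 7.26 CPM in WT (log2 fold change 0.30 in DG/DG against WT, edgeR adjusted p = 0.886). Its near-identical copy Gstp2 was at 0.38 and the microsomal Mgst3 at 0.16, and reads of Gstp1 and Gstp2 may be split between them. Gstt2, named for its small p in DG/+ against WT, was at 1.49 ± 0.185 CPM in DG/+ and 1.98 ± 0.275 CPM in WT. These 2 genotypes did not overlap for Gstt2 (log2 fold change -0.41), as for 0.316% of all genes.

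Of 31 peroxidases, thioredoxins and superoxide dismutases, 21 lay above 0 and 10 below in DG/DG against WT (median 0.08), and 17 above and 14 below in DG/+ against WT (median 0.01). The mitochondrial peroxiredoxin Prdx3 was at 50.3 ± 1.67 CPM in DG/DG, 45.8 ± 3.39 CPM in DG/+ and 43.6 ± 5.11 CPM in WT, with no overlap between DG/DG and WT (log2 fold change 0.20, edgeR adjusted p = 0.886). Of all genes, 2.62% had no such overlap. The cytosolic Prdx1 was at 52.3 ± 1.08 CPM in DG/DG, 47.1 ± 4.64 CPM in DG/+ and 46.3 ± 3.96 CPM in WT (0.17), and the methionine sulfoxide reductase Msrb2 at 19.5 ± 1.52 CPM in DG/DG, 16.8 ± 1.37 CPM in DG/+ and 16.4 ± 1.77 CPM in WT (0.24). Sesn2, a stress-induced sestrin, was at 12.8 ± 0.794 CPM in DG/DG, 11.04 ± 1.62 CPM in DG/+ and 13.4 ± 0.606 CPM in WT (-0.27 in DG/+ against WT). The secreted peroxidase Gpx3 varied most, at 7.61 ± 4.49 CPM in DG/DG, 3.42 ± 0.934 CPM in DG/+ and 6.81 ± 5.82 CPM in WT.

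Of 17 regulators of NRF2, 7 lay above 0 and 10 below in DG/DG against WT (median -0.00799). Syvn1, a ubiquitin ligase of the endoplasmic reticulum, was at 29.1 ± 1.05 CPM in DG/DG, 32.7 ± 4.41 CPM in DG/+ and 35.4 ± 4.77 CPM in WT (log2 fold change -0.28, edgeR adjusted p = 0.886). Mafg, a small Maf partner of NRF2, was at 26 ± 0.555 CPM in DG/DG, 28.4 ± 2.33 CPM in DG/+ and 30.2 ± 3.86 CPM in WT (-0.21, adjusted p = 0.886). For both genes DG/DG and WT did not overlap, as for 2.62% of all genes, and both were named for their small p in this comparison. Keap1, which targets NRF2 for degradation, was at -0.02 on the log2 scale, and Bach1, which competes with NRF2 for its sites, rounded to 0.

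Of 22 other NRF2 targets and enzymes of NADPH supply, 14 lay above 0 and 8 below in DG/DG against WT (median 0.06), and 9 above and 13 below in DG/+ against WT. The ferritin chains stood on opposite sides, with the heavy chain Fth1 at 586 ± 43.8 CPM in DG/DG, 643 ± 54.3 CPM in DG/+ and 663 ± 75.2 CPM in WT (log2 fold change -0.18) and the light chain Ftl1 at 135 ± 11.6 CPM in DG/DG, 126 ± 5.57 CPM in DG/+ and 121 ± 16 CPM in WT (0.15). The heme oxygenase Hmox1 was at -0.20 and the aldehyde oxidase Aox1 at -0.37.

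Of 27 genes of ferroptosis and iron handling, 21 lay above 0 and 6 below in DG/DG against WT (median 0.06), and 12 above and 15 below in DG/+ against WT (median -0.01). Vdac2, a mitochondrial channel, was at 145 ± 7.51 CPM in DG/DG, 134 ± 8.56 CPM in DG/+ and 127 ± 13.8 CPM in WT (log2 fold change 0.19 in DG/DG against WT), with Vdac3 at 0.18. The lipid ligase Acsl4 was at 0.10 and the ubiquinone reductase Aifm2 at 0.13. The iron chaperone Pcbp1 was at 46.6 ± 2.63 CPM in DG/DG, 48.7 ± 4.93 CPM in DG/+ and 51.7 ± 1.59 CPM in WT (-0.15), with no overlap between DG/DG and WT. Of all genes, 2.62% had no such overlap.

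Selenoproteins such as Gpx4 and Txnrd1 need the selenocysteine machinery, of which 5 of 12 genes lay above 0 and 7 below in DG/DG against WT (median -0.02). Secisbp2, which reads the selenocysteine signal in the transcript, was at 17.6 ± 1.14 CPM in DG/DG, 19.5 ± 2.34 CPM in DG/+ and 21.5 ± 3.31 CPM in WT (log2 fold change -0.28, edgeR adjusted p = 0.886). The kinase Pstk (-0.24) and the selenoprotein P receptor Lrp8 (-0.17) were also below 0.

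Of 22 genes of the ATF4 pathway, the other known regulator of Slc7a11, 15 lay above 0 and 7 below in DG/DG against WT (median 0.07), and 13 above and 9 below in DG/+ against WT (median 0.02). Asns, an asparagine synthetase and a standard ATF4 target, was at 121 ± 9.04 CPM in DG/DG, 110.1 ± 7.85 CPM in DG/+ and 107 ± 8.31 CPM in WT (log2 fold change 0.18, edgeR adjusted p = 0.886). Atf3, at 4.02 ± 1.58 CPM in DG/DG, 3.59 ± 1.46 CPM in DG/+ and 2.50 ± 1.06 CPM in WT (0.69), had the largest value of the list with an SE of 0.405. Atf4 itself was at 0.11, Ddit3 at 0.20 and the lipoprotein receptor Vldlr at 0.13. Among the 7 below 0 in DG/DG against WT were Atf5 at -0.23, the lowest of the list, and Ddit4 at -0.20.

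**Figure D5:**
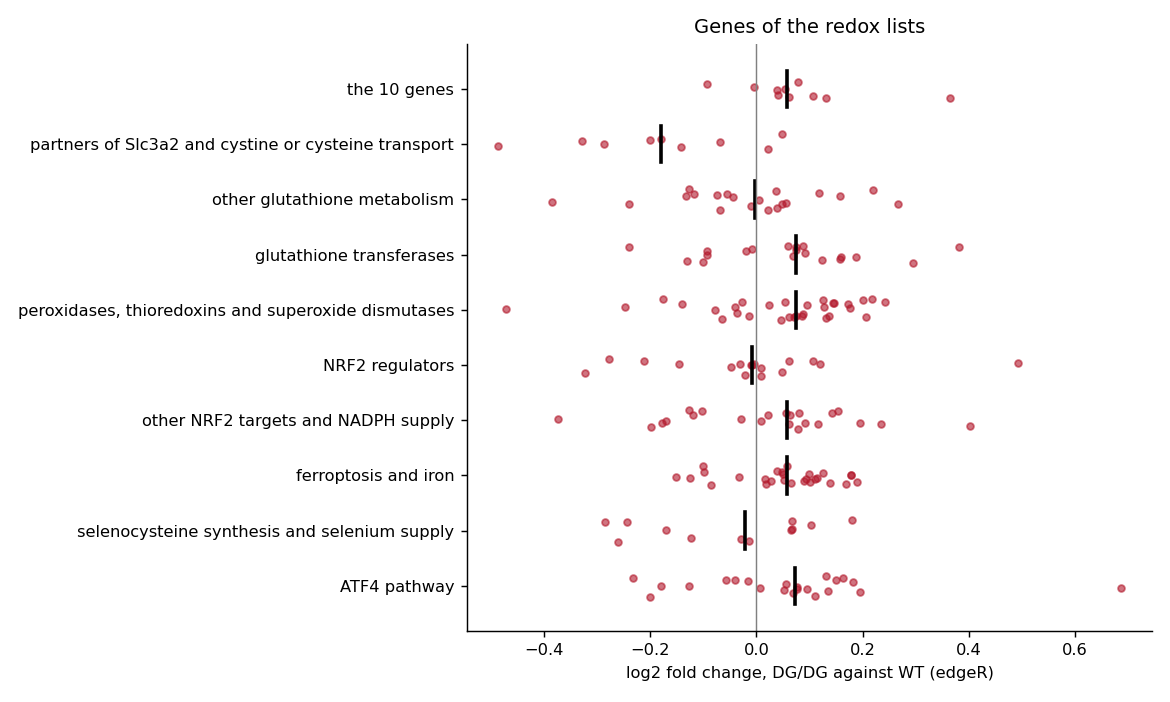
Log2 fold change in DG/DG against WT (x axis) of the 10 genes and of the genes of 9 related lists that passed the filter (rows), 1 point per gene, with a bar at each median. The medians lie between -0.18 for the partners of Slc3a2 and 0.08 for the transferases and the peroxidases, and Slc7a11 at 0.37 is the farthest point of its row.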

How the data were processed

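RNA of the anterior cortex was extracted with an RNeasy kit and sequenced as Illumina libraries, per the labels' protocols, with 1 library from each of 14 mice. The authors deposited 1 table of 24939 RefSeq transcripts with raw read counts and with log2 values that had the same distribution in every library; how these were made is not stated. The same table holds the authors' edgeR results as log2 averages, log2 fold changes, p-values and FDR values for DG/DG and DG/+ against WT. The submitters' processing notes name edgeR and the build mm10; the aligner, the counter and any use of strand are not stated there or in the labels. Columns were matched to mice by mouse number; in WT it differs from the replicate number for 3 mice, and replicate numbers of the labels are used in the text.

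Of 19360 gene symbols the transcript with the largest summed count was kept, which left out 5579 transcripts. Counts were fitted over all 14 libraries with edgeR 4.0.16 in R 4.3.3 (filterByExpr, TMM, robust quasi-likelihood), leaving 14565 genes. Genotypes were compared pairwise and as a slope on the number of DG alleles, with Benjamini-Hochberg adjustment over all genes tested and a threshold of 0.05. Levels are CPM with TMM scaling, and correlations used log2 CPM with a prior count of 2 and 100000 permutations. Scripts were tested on simulated data.

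The members, the lists and the tests were chosen with earlier results of these data known. The text names the 10 genes, Vcp, from each list up to 3 genes with the smallest p in DG/DG against WT and up to 2 more from DG/+ against WT (mean of at least 1 CPM), and the 8 genes most and 4 least like Slc7a11. Not every list gene that this rule gives is named, and most left out are those from DG/+ against WT. Hmox1, Keap1, Acsl4, Aifm2, Atf4 and Ddit3 were named for their known roles with their values in view, and Atf5 as the lowest of its list. Alternatives were DESeq2 1.42.0, limma-voom and limma-trend (limma 3.58.1), other size factors, filters, sample sets, covariates, a replicate block and each library left out.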

Additional observations from a re-analysis of the deposited data

How the results depend on the processing

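Every count of genes past the adjusted threshold was 0 under every alternative run, while genes at an unadjusted p under 0.05 numbered 345 to 1466 in DG/DG against WT, 142 to 652 in DG/+ against WT (652 under the replicate block) and 289 to 971 in DG/DG against DG/+. Of 590 values of the 10 genes under alternatives that kept the study's libraries or left out several, 556 kept their direction and 34 reversed, all of them log2 fold changes that did not pass the threshold in the first place. The 556 include values under a looser threshold of 0.1, which leaves the fit unchanged and so could not reverse a direction. With the astrocyte level as a covariate, the reversed values were -0.00292 for Gclc in DG/+ against WT. With DESeq2, the reversed values were -0.000102 for Nqo1 in DG/+ against WT. With every transcript tested, the reversed values were 0.00255 for Gclm in DG/DG against WT, and 0.00128 for Gclm per DG allele. With limma-trend on the authors' log2 values, the reversed values were 0.00527 for Gclm in DG/DG against WT, and -0.00652 for Gpx4 in DG/DG against DG/+, and 0.00264 for Gclm per DG allele. With limma-voom, the reversed values were -0.0106 for Nqo1 in DG/+ against WT. With the replicate number as a block, the reversed values were -0.0262 for Gss, -0.0191 for Gpx4, -0.0129 for Nqo1 in DG/+ against WT. Without DG/DG replicate 1, DG/+ replicate 2 and WT replicates 2 and 3, the reversed values were -0.0044 for Slc3a2, -0.0368 for Gsr, -0.17 for Gpx4, -0.0628 for Txnrd1, 0.0251 for Nqo1, -1.12e-05 for Nfe2l2 in DG/DG against WT, and -0.23 for Gpx4, -0.10 for Txnrd1 in DG/+ against WT, and 0.00125 for Gclm, -0.0289 for Gsr, -0.0706 for Gpx4, -0.0239 for Txnrd1, 0.000194 for Nqo1, -0.000445 for Nfe2l2 per DG allele. Without DG/DG replicate 1 and WT replicate 3, chosen after seeing the data, the reversed values were -0.0523 for Gsr, -0.0172 for Gpx4, 0.0497 for Nqo1 in DG/DG against WT, and 0.0592 for Slc7a11, -0.0805 for Gpx4, -0.00812 for Txnrd1 in DG/+ against WT, and -0.0265 for Gsr, -0.0081 for Gpx4, 0.024 for Nqo1 per DG allele. Slc7a11 in DG/DG against WT kept its direction in all of them, between 0.34 and 0.42, with 0.37 and 0 genes called under the replicate block. The block was not taken as a pairing, because the labels do not tie the replicate numbers together and 6 of 12 same-numbered pairs had a correlation above 0.1 (-0.231 to 0.334, with a median of -0.0625 over other pairs) and 3 of 12 libraries correlated best with their own number. Pairing by mouse number, which differs in WT, was not tested. With each library left out in turn, 45 of 560 values reversed, and the ranges of the log2 fold changes concerned were -0.0129 to 0.0843 for Slc3a2, -0.0263 to 0.0257 for Gclm, -0.0626 to 0.12 for Gsr, -0.0598 to 0.18 for Gpx4, -0.21 to 0.00221 for Nqo1 in DG/DG against WT, and -0.13 to 0.0593 for Slc7a11, -0.0851 to 0.00404 for Slc3a2, -0.0103 to 0.0344 for Gclc, -0.0213 to 0.11 for Gss, -0.0805 to 0.16 for Gpx4, -0.0202 to 0.12 for Txnrd1, -0.0802 to 0.0997 for Nqo1 in DG/+ against WT, and -0.0917 to 0.11 for Gpx4, -0.00592 to 0.16 for Txnrd1, -0.0654 to 0.0547 for Nfe2l2 in DG/DG against DG/+, and -0.00907 to 0.0453 for Slc3a2, -0.0159 to 0.0171 for Gclm, -0.0201 to 0.0631 for Gsr, -0.0263 to 0.0868 for Gpx4, -0.000598 to 0.0653 for Nfe2l2 per DG allele. Slc7a11 in DG/DG against WT ran from 0.28 to 0.47. The cause of these shifts was not tested. Counting error weighs most on Nqo1, Gss and Gpx4, which have the fewest counts, and 4 to 6 mice per genotype limit what can be seen: an interval that includes 0 does not show equal levels.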
